A study of Rattus norvegicus with 5 samples.

Results

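The Hox cluster genes are the homeobox genes whose rat symbol is Hoxa, Hoxb, Hoxc or Hoxd followed by a paralog number, and they were taken as every non-control probe of the array that maps to such a symbol. RefSeq lists 39 of them for the rat, and 20 were read here, by 22 probes, out of 15167 named genes on the array. They fell on all 4 clusters, with 5 of 11 genes of the A cluster on chromosome 4, 6 of 10 of the B cluster on chromosome 10, 3 of 9 of the C cluster on chromosome 7 and 6 of 9 of the D cluster on chromosome 3. The 19 Hox genes without a named probe were Hoxa3, Hoxa4, Hoxa5, Hoxa9, Hoxa10, Hoxa13, Hoxb1, Hoxb2, Hoxb5, Hoxb6, Hoxc6, Hoxc8, Hoxc9, Hoxc10, Hoxc11, Hoxc13, Hoxd3, Hoxd8 and Hoxd11, and they were not analysed here.

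Hox genes encode homeodomain transcription factors that give cells their position along the head to tail axis and the limb. Their order in a cluster follows the order in which they are used along that axis, genes at the same place in different clusters (paralogs) overlap in function, and cultured connective tissue cells tend to keep the Hox pattern of the body site they came from. The clusters are kept silent by Polycomb complexes, kept active by Trithorax complexes and opened early in development by retinoic acid, and the proteins bind DNA together with TALE homeodomain partners of the Pbx and Meis families.

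Gene expression was measured with 1-colour arrays in BRL-3A, a cell line from Buffalo rat liver that the labels call hepatocytes. The study asks how Tmub1, a membrane protein with a ubiquitin-like domain, bears on transcription in these cells. The 5 groups were cells given a lentivirus for Tmub1 overexpression, cells given a lentivirus for Tmub1 knockdown, cells given the negative control virus of the overexpression vector, cells given the negative control virus of the knockdown vector, and normal cells without virus. Transduced cells were harvested after 48 h, and each group had 1 array, so there was no spread between replicates, no p-value could be given and no difference could be checked against a replicate. The 4 transduced arrays were scanned together and the array of normal cells in another scan, so scan and virus cannot be told apart in any comparison with normal cells. The labels used here do not describe the vectors or the sequences they carried.

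Each array gave 42877 non-control spots, none saturated. The median processed signal ranged from 116 with the overexpression negative control to 356 with the knockdown virus, and 66.9% to 86.5% of probes were called well above background by the scanner's own software. The Tmub1 level was -1.42 with the knockdown virus, against 0.45 in its negative control, a 3.65-fold lower mRNA signal, whereas its difference with the overexpression virus was 0.07 on the log2 scale (95% interval from scanner error -0.33 to 0.47). The overexpression label was therefore not borne out by this probe, and whether the probe reads the transcript of the vector is not known, so every overexpression value below is that of the array labelled overexpression. Of 10 hepatocyte markers, 5 were well above background on all 5 arrays and the urea cycle enzyme Cps1 on none, and albumin was so on 2 arrays. Of 12 mesenchymal and fibroblast markers, 11 passed on all 5 arrays. These are bulk RNA samples, in which fewer cells of a type and less RNA per cell cannot be told apart.

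The promoter sequences of 4 genes are shown because the results turn on them: Hoxd10 and Hoxa7 are the Hox genes that stood below all 3 control arrays by the called fold with the knockdown virus, and Hoxd9 and Hoxd13 are the nearest measured neighbours of Hoxd10 in the D cluster that were well above background on every array. Each is the 250 bases before the start of the gene in the RefSeq table of build GRCr8, 5′ to 3′ on the strand of the gene: Hoxd10 at chr3:80001697-80001946 on the plus strand, Hoxa7 at chr4:82648242-82648491 on the minus strand, Hoxd9 at chr3:80007756-80008005 on the plus strand and Hoxd13 at chr3:79977827-79978076 on the plus strand. Capitals mark the motifs found.
Hoxd10: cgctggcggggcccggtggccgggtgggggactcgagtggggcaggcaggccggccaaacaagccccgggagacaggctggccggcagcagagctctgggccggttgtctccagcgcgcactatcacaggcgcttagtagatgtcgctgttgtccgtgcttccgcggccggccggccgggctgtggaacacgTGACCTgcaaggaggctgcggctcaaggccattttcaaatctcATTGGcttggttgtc
Hoxa7: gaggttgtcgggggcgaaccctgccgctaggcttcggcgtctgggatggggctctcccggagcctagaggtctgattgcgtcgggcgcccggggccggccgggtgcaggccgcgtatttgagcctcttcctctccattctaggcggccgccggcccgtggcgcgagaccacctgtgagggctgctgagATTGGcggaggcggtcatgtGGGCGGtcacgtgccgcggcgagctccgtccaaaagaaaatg
Hoxd9: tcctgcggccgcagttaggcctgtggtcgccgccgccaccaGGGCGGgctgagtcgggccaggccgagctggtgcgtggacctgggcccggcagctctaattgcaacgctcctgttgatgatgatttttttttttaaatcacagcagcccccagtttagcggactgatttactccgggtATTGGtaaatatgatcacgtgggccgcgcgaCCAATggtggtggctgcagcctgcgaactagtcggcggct
Hoxd13: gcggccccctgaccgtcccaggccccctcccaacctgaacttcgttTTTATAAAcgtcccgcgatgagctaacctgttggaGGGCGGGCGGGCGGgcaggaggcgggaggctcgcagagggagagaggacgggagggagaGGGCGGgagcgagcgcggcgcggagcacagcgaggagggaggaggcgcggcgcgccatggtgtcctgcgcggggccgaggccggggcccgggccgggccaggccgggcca
The motifs searched on both strands were the TATA box TATAAA, the CCAAT box CCAAT, the GC box GGGCGG, the homeodomain core TAATTA, the composite Pbx and Hox site TGATNNAT and the retinoic acid receptor half-site AGGTCA. Hoxd10 held a CCAAT box from 15 to 11 bases before its start and a retinoic acid receptor half-site from 58 to 53 bases before it, both read on the other strand. Hoxa7 held a CCAAT box and a GC box, Hoxd9 held 2 CCAAT boxes and a GC box, and Hoxd13 held 4 GC boxes, 3 of which overlap, and a TATA box that matches on both strands at overlapping places. Over the 33469 promoters of the table, a CCAAT box is present in 34%, a GC box in 30.5%, a retinoic acid receptor half-site in 14.1%, a TATA box in 12.9%, the composite site in 7.96% and the homeodomain core in 4.86%. A match describes letters only and is not a binding site. The 4 windows were rich in G and C (67.2% in Hoxd10, 68.8% in Hoxa7, 60% in Hoxd9 and 74.8% in Hoxd13) and held 20 to 30 CpG sites, against a median of 51.2% and 5 CpG sites over all promoters. Over the 21 Hox promoters of the table the medians were 60% (45.2% to 78.8%) and 20 CpG sites. Of these 21, 12 held a CCAAT box, 10 a GC box, 4 a TATA box and 3 a retinoic acid receptor half-site. These traits are therefore not particular to the 4 genes shown.

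A level below is the log2 processed signal of a probe minus the 75th percentile of its array, so that 0 is that percentile and a step of 1 is a doubling. Levels of different probes depend on the probe and are not set against each other. Of the 20 Hox genes, 13 were well above background on all 5 arrays, among them Hoxa7, Hoxb4, Hoxb7, Hoxb8, Hoxc4, Hoxc5, Hoxc12, Hoxd1, Hoxd4, Hoxd9, Hoxd10 and Hoxd13. A further 5 passed on some arrays (Hoxa2, Hoxa11, Hoxb3, Hoxb9 and Hoxb13), and Hoxa6 and Hoxd12 on none. The number well above background was 18 with the overexpression virus, 14 with the knockdown virus, 15 in each negative control and 18 in normal cells. Of all probes, 72.2% passed with the overexpression virus and 80.8% with the knockdown virus. The share was 66.9% in the overexpression negative control, 72.6% in the knockdown negative control and 86.5% in normal cells. Of all 15167 genes, 10681 were well above background on every array. The Hox genes detected on every array came from all 4 clusters and from anterior, central and posterior paralog groups.

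**Figure D1:**
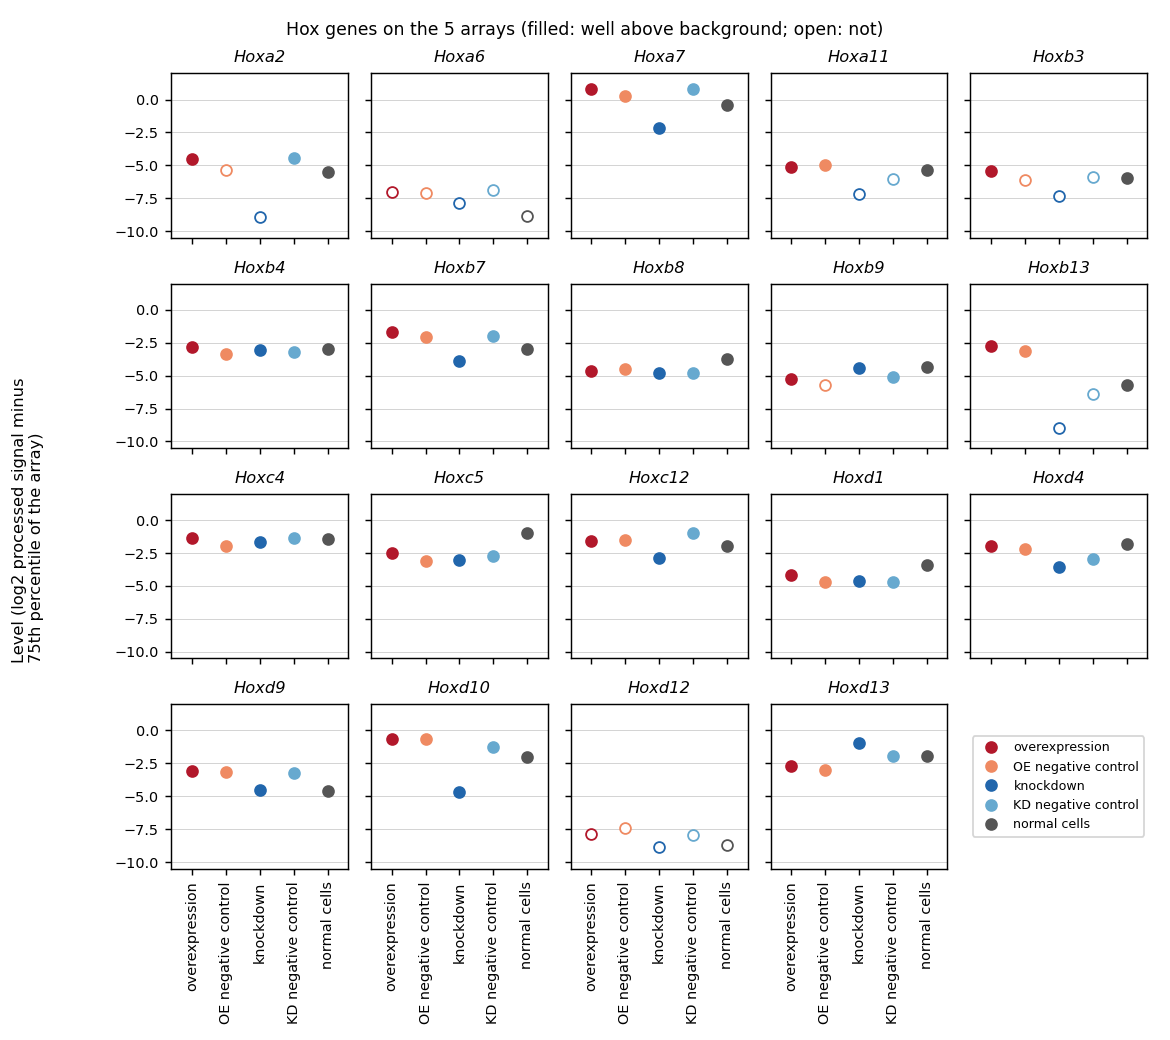
Level of Hox genes on the array (y axis, log2 processed signal minus the 75th percentile of the array) on the 5 arrays, 1 point per array, filled where the probe was well above background and open where it was not. With the knockdown virus, Hoxd10 lay at -4.68 and Hoxa7 at -2.14, each below the other 4 arrays, whereas Hoxd13 lay at -0.99, above them.

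With the knockdown virus, 5 Hox genes were lower than in its negative control by 2.5-fold or more and none was higher. They were Hoxd10, Hoxa7, Hoxa2, Hoxb7 and Hoxc12, with at least 1 from every cluster. The count was 5 of the 15 Hox genes that were well above background on at least 1 of the 2 arrays. Of all genes that could be called, 10.0% were lower (1284) and 8.44% were higher (1079) by the same fold, so that 45.7% of the calls were higher, a share that ran from 34.1% with normexp to 71.2% with the percentile taken over probes above background on all arrays. Hoxa2 entered the 15 only through the array on which it was high. The median difference of the 14 Hox genes measured on both arrays was -0.46 on the log2 scale, against -0.25 for all genes, and 5 of the 14 lay above 0. With that percentile the median was -0.15 for the Hox genes, against 0.06 for all genes, and all 5 genes were still called.

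The group 10 gene Hoxd10, which in the mouse patterns the lumbar spinal cord and the hindlimb, had the largest measured difference of the Hox genes. Its processed signal was 55.5 with the knockdown virus, against 283 in its negative control. Its level was -4.68 with the knockdown virus, against -1.28 in its negative control, and -0.66 with the overexpression virus, against -0.66 in its negative control and -2.02 in normal cells. The knockdown array was the low one, and the 3 control arrays spanned 1.36. The difference between knockdown virus and its negative control was -3.40 (95% interval from scanner error -3.82 to -2.97), or 10.5-fold lower. It was 16.1-fold lower than the overexpression negative control and 6.30-fold lower than normal cells.

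The group 7 genes Hoxa7 and Hoxb7 sit in the middle of their clusters and help to pattern the trunk vertebrae and ribs in the mouse. Hoxa7 stood at -2.14 with the knockdown virus, against 0.79 in its negative control, and at 0.83 with the overexpression virus, against 0.26 in its negative control and -0.45 in normal cells. The knockdown array was again the lowest of the 5, and the 3 controls spanned 1.24. Hoxa7 was 7.61-fold lower after knockdown than in the matching negative control (log2 difference -2.93, interval -3.33 to -2.53), 5.29-fold lower than the overexpression negative control and 3.23-fold lower than normal cells. For Hoxb7, the level was -3.92 with the knockdown virus, against -2.01 in its negative control, and -1.71 with the overexpression virus, against -2.08 in its negative control and -2.95 in normal cells. The knockdown array was the lowest here too, but the normal cells lay between it and the other 3. Hoxb7 was 3.75-fold lower than its negative control (-1.91, interval -2.32 to -1.50) and 3.57-fold lower than the overexpression negative control, and its difference from normal cells, -0.97, missed the threshold. These are the only group 7 genes of the rat, and both were lower.

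Hoxc12, a posterior gene of group 12, had a level of -2.88 with the knockdown virus, against -0.999 in its negative control, and of -1.57 with the overexpression virus, against -1.51 in its negative control and -1.94 in normal cells. It was lowest with the knockdown virus. It was 3.69-fold lower than its negative control (-1.89, interval -2.29 to -1.48) and 2.60-fold lower than the overexpression negative control, and differed by -0.94 from normal cells. The anterior gene Hoxa2, which specifies the second branchial arch in the mouse, was well above background on 3 arrays, at -4.50 with the overexpression virus, -4.47 in the knockdown negative control and -5.52 in normal cells. It was not well above background with the knockdown virus or in the overexpression negative control. Since the knockdown value is only a limit, Hoxa2 was at least 4.78-fold lower after knockdown than in the matching negative control. Against normal cells the limit was 2.31-fold, under the threshold, and against the overexpression negative control no fold can be given.

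Other Hox genes had a value but did not pass the threshold with the knockdown virus. Closest to it was Hoxd9, a group 9 gene of the lumbosacral region and hindlimb, which had a level of -4.53 with the knockdown virus, against -3.22 in its negative control, and of -3.05 with the overexpression virus, against -3.15 in its negative control and -4.58 in normal cells. Its difference of -1.30 (interval -1.75 to -0.86) fell just short of 1.32, and the knockdown array lay beside the normal cells and below the other 3. Hoxd13, whose mutation in people joins and duplicates digits, was the only gene of the 13 above all 3 controls, at -0.99 with the knockdown virus, against -1.92 in its negative control, and -2.70 with the overexpression virus, against -2.98 in its negative control and -1.92 in normal cells. Its difference from the knockdown negative control was 0.93 (interval 0.53 to 1.33), short of the threshold. Hoxd4, a group 4 gene of the cervical vertebrae, differed by -0.56 from the knockdown negative control, at -3.53 with the knockdown virus, against -2.97 in its negative control, and at -2.00 with the overexpression virus, against -2.18 in its negative control and -1.80 in normal cells.

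The difference of Hoxb9, a gene of the rib-bearing trunk, was 0.67, at -4.43 with the knockdown virus, against -5.10 in its negative control, and at -5.29 with the overexpression virus, against a value not well above background in its negative control and -4.32 in normal cells. A further 5 differed by -0.36 to 0.16.

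Those 5 were the anterior and central genes Hoxb4, Hoxb8, Hoxc4, Hoxc5 and Hoxd1. Hoxb4, known for its effect on blood stem cells, stood at -3.03 with the knockdown virus, against -3.19 in its negative control, and at -2.83 with the overexpression virus, against -3.34 in its negative control and -2.97 in normal cells. Hoxc4 stood at -1.67 with the knockdown virus, against -1.34 in its negative control, and at -1.39 with the overexpression virus, against -1.99 in its negative control and -1.42 in normal cells. The 5 arrays lay close together for Hoxb4 and Hoxc4. Hoxb4, Hoxc4 and Hoxd4, the group 4 genes read here, were all short of the threshold against the knockdown negative control. Hoxd4 alone of them was called lower with the knockdown virus against the overexpression negative control (2.54-fold) and normal cells (3.33-fold). Hoxb8, a gene of blood and microglial precursors in the mouse, had levels of -4.79 with the knockdown virus, against -4.82 in its negative control, and of -4.61 with the overexpression virus, against -4.46 in its negative control and -3.76 in normal cells. Hoxd1, which acts in pain-sensing neurons of the mouse, stood at -4.59 with the knockdown virus, against -4.69 in its negative control, and at -4.20 with the overexpression virus, against -4.70 in its negative control and -3.44 in normal cells. For both, the normal cells were the high array and the 4 transduced arrays lay close together. Hoxc5 is described with the comparisons against normal cells, and its difference here was -0.36.

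**Figure D2:**
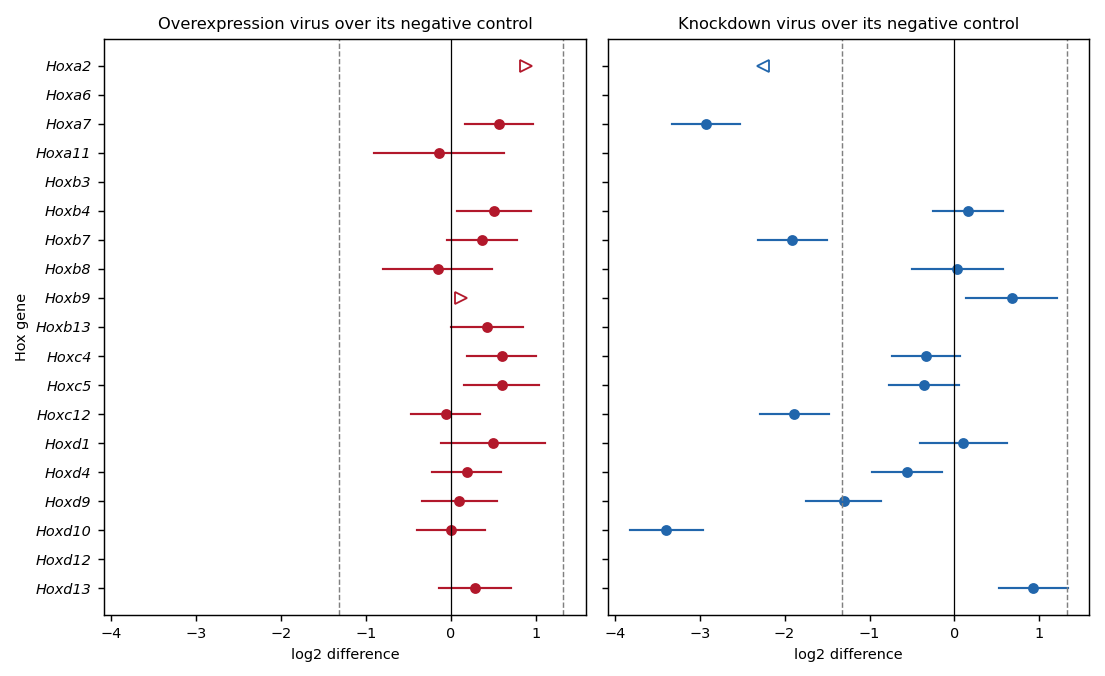
Difference of Hox genes (log2) between the overexpression virus and its negative control (left) and between the knockdown virus and its negative control (right), with 95% intervals from scanner error as bars. Triangles are lower bounds, dashed lines mark 2.5-fold, and genes with no point had no value. The knockdown panel holds 5 genes left of -1.32 and none right of 1.32, and the overexpression panel holds none past either line.

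The 2 negative controls themselves differed, so the knockdown array was also set against the overexpression negative control and the normal cells. Lower than each of the 3 by 2.5-fold were 2 Hox genes, Hoxa7 and Hoxd10, of the 14 that could be called in all 3 comparisons, where 3.03% of all genes did so. Below all 3 by any amount were 6 of the 13 Hox genes detected on every array (among them Hoxa7, Hoxb7, Hoxc12, Hoxd4 and Hoxd10), and above all 3 was Hoxd13. Of all genes detected on every array, 43.2% lay below all 3 controls with the knockdown virus and 26.3% above them, so 6 of 13 is near the share of all genes. Against the overexpression negative control alone, 8 of 16 Hox genes were lower and 1 was higher, with 15.6% of all genes lower and 13.2% higher. The 8 were Hoxd10, Hoxb13, Hoxa7, Hoxb7, Hoxa11, Hoxd9, Hoxc12 and Hoxd4, and the higher gene was Hoxd13, by 3.97-fold (1.99, interval 1.57 to 2.41). Hoxa11 and Hoxb13 entered the 16 only through the array on which they were high and give limits, and 6 of the 8 were measured on both arrays. These comparisons share the knockdown array.

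**Figure D3:**
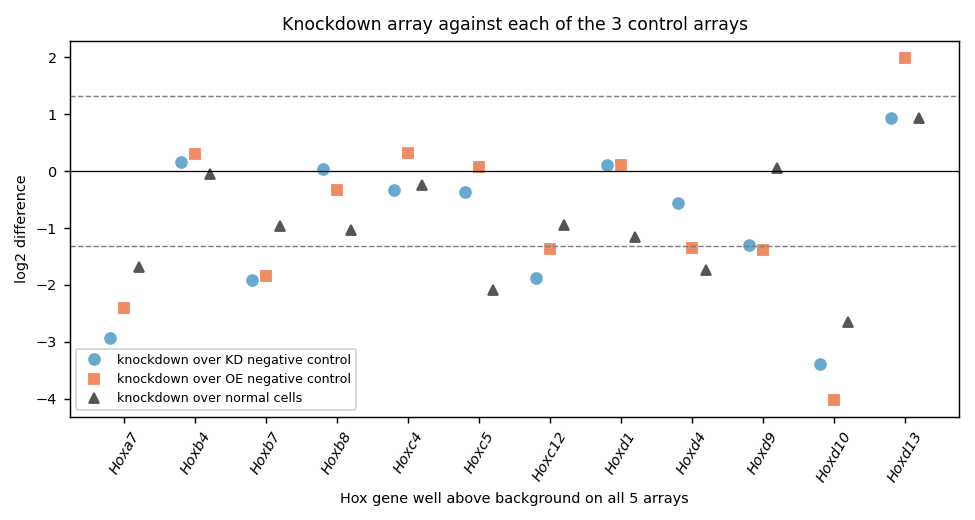
Difference (log2) of the knockdown array from each of the 3 control arrays for Hox genes well above background on all 5 arrays, with dashed lines at 2.5-fold. The 3 symbols of Hoxd10 (-3.40, -4.01 and -2.65) and of Hoxa7 (-2.93, -2.40 and -1.69) lie below the lower line, and those of Hoxb4 lie around 0.

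With the overexpression virus, no Hox gene differed from its negative control by 2.5-fold, among 18 that could be called. Of all genes, 2.71% did so in either direction, with 62.9% of those calls higher, a share that ran over the other scalings from 49.4% with normexp to 72.0% with the percentile over all spots. The 15 Hox genes measured on both arrays ranged from -0.16 for Hoxb8 to 0.60 for Hoxc5 and Hoxc4, with a median of 0.28 against -0.01 for all genes, and 11 of the 15 lay above 0. Under the other scalings the median of these 15 lay between 0.05 and 0.36. The interval from scanner error lay wholly above 0 for Hoxa7 (0.56, 0.16 to 0.96), Hoxb4 (0.51), Hoxc4 (0.60) and Hoxc5 (0.60), all under the threshold. Against the knockdown negative control, each of these genes had an interval that covered 0. There the differences were 0.04 for Hoxa7, 0.36 for Hoxb4, -0.05 for Hoxc4 and 0.17 for Hoxc5. Hoxd10 had the same level with the overexpression virus and in its negative control, and its interval ran from -0.40 to 0.40.

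Against the other negative control, the overexpression array had 1 called Hox gene of 18, Hoxb13, where 4.08% of all genes were called. Hoxb13, the most posterior gene of the B cluster and a regulator of the prostate lineage, differed between the arrays of the 2 vectors. It was well above background with the overexpression virus at -2.73, against -3.15 in its negative control and -5.70 in normal cells, and it was not well above background with the knockdown virus or in the knockdown negative control. Both arrays of the overexpression vector were therefore high and both arrays of the knockdown vector low. Hoxb13 was at least 6.83-fold higher in the overexpression negative control than in the knockdown negative control, the only Hox gene of 17 called between them, with 8.53% of all genes called. Hoxb13 entered this 17, and the 18 above, only through the array on which it was high. It was at least 9.16-fold higher with the overexpression virus than in the knockdown negative control, and at least 11.9-fold lower after knockdown than in the overexpression negative control. Between the knockdown virus and its own negative control no fold can be given for Hoxb13.

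The group 11 gene Hoxa11, which shapes the forearm and the uterus in the mouse, was well above background at -5.15 with the overexpression virus, against -5.01 in its negative control and -5.32 in normal cells, and not in the cells with the knockdown virus or its negative control. It was at least 3.28-fold lower after knockdown than in the overexpression negative control and at least 2.64-fold lower than in normal cells, a call lost in 5 of 10 alternatives, and the limit between the 2 negative controls was 0.92, under the threshold. Hoxb3, a group 3 gene of the hindbrain and neck, was well above background at -5.43 with the overexpression virus and at -5.98 in normal cells only, and was called in no comparison.

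Set against normal cells, the arrays gave 4 called Hox genes of 18 with the overexpression virus (16.6% of all genes), 5 of 18 with the knockdown virus (30.5%), 4 of 18 in the overexpression negative control (17.4%) and 2 of 18 in the knockdown negative control (16.5%). These 4 comparisons share the array of normal cells. Hoxc5, a gene of the neck and upper trunk, was lower on all 4 transduced arrays, the only Hox gene called the same way on all 4. Its level was -2.52 with the overexpression virus, -3.05 with the knockdown virus, -3.12 in the overexpression negative control and -2.69 in the knockdown negative control, against -0.97 in normal cells. The normal array was the high one, and Hoxc5 was 2.93-fold lower with the overexpression virus, 4.23-fold lower with the knockdown virus, 4.44-fold lower in the overexpression negative control and 3.30-fold lower in the knockdown negative control. With normexp the call was lost on 3 of the arrays, at -1.23 with the overexpression virus, -1.29 in the overexpression negative control and -1.20 in the knockdown negative control. On the overexpression array it was also lost with cyclic loess (-1.10) and narrowly with the authors' values (-1.32). A weaker probe of Hoxc5 was well above background in normal cells alone, at -5.34, and was lower by limits of 1.43-fold with the overexpression virus, 2.60-fold with the knockdown virus, and by limits under the threshold in both negative controls, so that the knockdown limit alone passed it.

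Hoxd9 was higher than in normal cells on 3 of the transduced arrays, by 2.89-fold with the overexpression virus, 2.70-fold in its negative control and 2.56-fold in the knockdown negative control, and all 3 calls were lost with normexp and with the percentile over all spots. With the knockdown virus it differed from normal cells by 0.05. Hoxd10 was 2.56-fold higher with the overexpression virus and 2.56-fold higher in its negative control than in normal cells, both lost with normexp and with each other percentile, and 6.30-fold lower with the knockdown virus. Hoxb13 was 7.84-fold higher with the overexpression virus and 5.85-fold higher in its negative control, calls that normexp lost. Lower with the knockdown virus than in normal cells were Hoxa7, Hoxa11, Hoxc5, Hoxd4 and Hoxd10, and Hoxd4 was 3.33-fold lower. Hoxa11 entered that count only through the array of normal cells, and its call was lost in 5 of 10 alternatives.

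Markers of other cell types moved between transduced and normal cells as well. All 5 skeletal muscle markers were called higher than in normal cells on each of the 4 transduced arrays, and their summed level, with the 75th percentile of an array set to 1, was 15.9 to 21.8 on the transduced arrays, against 0.127 in normal cells. Macrophage and leukocyte markers summed to 3.01 to 4.22 on the transduced arrays, against 1.14 in normal cells, with the leukocyte gene Ptprc not well above background in normal cells. Of these 6, 3 were higher with the overexpression virus, 3 with the knockdown virus (and 1 lower), 3 in the overexpression negative control and 4 in the knockdown negative control. Other lists did not rise on every transduced array. Hepatocyte markers summed to 1.41 to 3.28, against 3.16 in normal cells. Cholangiocyte markers summed to 0.115 to 0.262, against 0.396, and endothelial markers to 1.43 to 4.22, against 3.63. Mesenchymal and fibroblast markers summed to 271 to 562 on the transduced arrays, against 350 in normal cells. Called higher than in normal cells were 4 of 12 mesenchymal markers with the overexpression virus, 5 with the knockdown virus (and 1 lower), 5 in the overexpression negative control and 4 in the knockdown negative control. Of all genes that could be called, 981 of 13576 were higher with the overexpression virus and 1535 of 13744 with the knockdown virus (and 2653 lower). The counts were 1022 of 13564 in the overexpression negative control and 953 of 13537 in the knockdown negative control. Dcn was 42.2-fold to 67.9-fold higher and Lum 17.8-fold to 32.8-fold higher on the transduced arrays, and Pdgfra was not well above background in normal cells. Between the knockdown virus and its negative control, 8.44% of all genes were higher and 10.0% were lower. Of 8 hepatocyte markers, 1 was higher and 2 were lower (summed level 1.41 with the knockdown virus, against 3.28 in its negative control). Of 12 mesenchymal markers, 2 were higher and 1 was lower (271 with the knockdown virus, against 393 in its negative control). Muscle markers summed to 15.9 with the knockdown virus, against 21.4 in its negative control, with 2 of 5 lower. Cholangiocyte markers summed to 0.115 with the knockdown virus, against 0.236 in its negative control, with Krt19 lower (-2.58) and Krt7 higher by a limit of 2.22. Endothelial markers summed to 2.32 with the knockdown virus, against 1.43 in its negative control, with Tek higher (1.69) and Erg lower by a limit of -2.65. The part of these markers in the Hox differences was not tested.

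The differences were also set out in gene order along the clusters, where most Hox genes next to a called one had no value. Among the measured genes of the D cluster, Hoxd10 at -3.40 and Hoxd9 at -1.30 stood between Hoxd4 at -0.56 and Hoxd13 at 0.93. Beyond Hoxd13, Evx2 differed by -0.79 and Lnpk by 0.17. Beyond Hoxd1, Mtx2 differed by 0.28, Hnrnpa3 by -0.71 and Nfe2l2 by -0.57. In the B cluster, Hoxb7 at -1.91 stood beside Hoxb8 at 0.03 and Hoxb9 at 0.67. Of 24 protein-coding genes taken as the 3 nearest on each side of each cluster, 18 were on the array, and of 17 that could be called 2 were lower and none was higher with the knockdown virus. The median of the 17 was -0.40, and 2 of 17 is near the 10.0% of all genes called lower. The 2 were Atp5mc1 (-1.40) beyond Hoxb13 and Calcoco1 (-1.41) beyond Hoxc13, a mitochondrial ATP synthase subunit and a coiled-coil coactivator, both named after their values were seen.

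**Figure D4:**
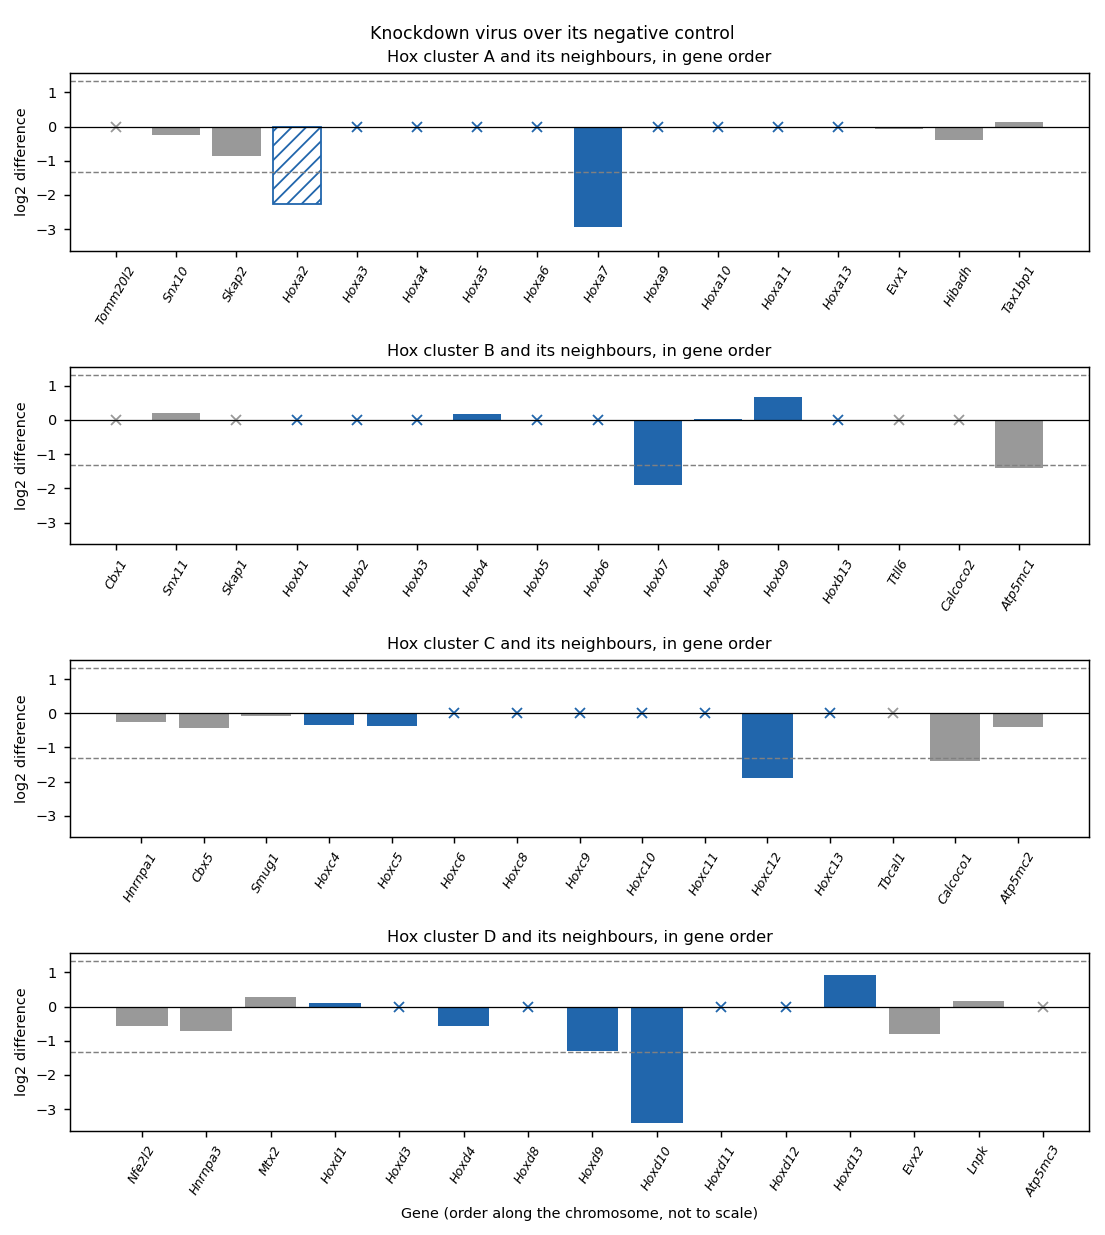
Difference between the knockdown virus and its negative control (log2, y axis) for genes of the 4 Hox clusters (blue) and 3 protein-coding neighbours on each side (grey), in gene order and not to scale. The hatched bar is a lower bound, crosses mark genes with no value and dashed lines mark 2.5-fold. The bars past the lower line are those of Hoxa2, Hoxa7, Hoxb7, Hoxc12 and Hoxd10 among the Hox genes, Hoxd9 ends at -1.30 just short of it, and Hoxd13 is the highest bar of its cluster at 0.93.

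Genes that act with the Hox proteins or on their clusters were described in the same way. Of 9 TALE cofactors, 7 were on the array and well above background on all 5 arrays, and none was called with either virus against its own negative control. Their median difference was 0.19 with the knockdown virus, against -0.25 for all genes, and it was -0.10 with normexp. With the knockdown virus 4 of the 7 lay above 0, and Meis1 was the lowest (-0.68). The Meis1 level was 1.46 with the knockdown virus, against 2.13 in its negative control, and 2.43 with the overexpression virus, against 2.62 in its negative control. Against the overexpression negative control, the knockdown array was higher for 2 of the 7, Pbx3 (1.858) and Pbx2 (1.475), where 13.2% of all genes were higher. That negative control was the lowest array for both.

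Of 29 Polycomb genes, 23 were on the array, and with the knockdown virus 5 were higher and 5 were lower than in its negative control, where 8.44% of all genes were higher and 10.0% were lower. The median was -0.25, the same as that of all genes, but it lay above that of all genes by 0.24 with quantile scaling and by 0.26 with the authors' values. The higher genes included Ezh2, a catalytic subunit of the complex that methylates histone H3 at lysine 27, by 2.30 on the log2 scale, the ring finger protein Bmi1 by 1.69, and the polyhomeotic genes Phc1 by 1.51 and Phc3 by 1.39. The lower genes included Phf1, an accessory subunit of the Ezh2 complex (-2.98), and the chromobox genes Cbx6 (-2.26), Cbx2 (-1.80) and Cbx7 (-1.67). The other lower gene was Ezh1, the paralog of Ezh2, by -1.55 against each negative control and with a difference of 0.03 from normal cells. Under the other scalings 1 to 5 were higher and 3 to 5 were lower, and Ezh2, Phf1, Cbx2 and Cbx7 were called under every one of them. Bmi1 and Phc1 lost their call with normexp, Phc3 also with quantile and cyclic loess scaling and the authors' values, and Cbx6 with quantile and cyclic loess scaling. Ezh1 lost its call with cyclic loess scaling and with each other percentile. With the overexpression virus none of 22 was called. Ezh2 itself stood at -0.24 with the knockdown virus, against -2.54 in its negative control, and at -2.01 with the overexpression virus, against -1.89 in its negative control and -1.36 in normal cells, so that the knockdown array was the highest of the 5.

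Of 14 Trithorax and histone demethylase genes, 9 were on the array, and with the knockdown virus none of 8 was higher and 2 were lower: the H3K79 methyltransferase Dot1l (-1.84, and -1.14 against the overexpression negative control, short of the threshold) and menin, Men1 (-1.50), with Men1 short of the threshold under every other scaling but normexp. Their median was 0.04. Of 20 genes of retinoic acid handling and Cdx factors, 17 were on the array, and of 16 that could be called 1 was higher and 3 were lower with the knockdown virus, against 8.44% and 10.0% of all genes. The retinoic acid binding protein Crabp1 was higher (1.68), a call that normexp lost, and differed by 0.34 from the overexpression negative control and by -0.78 from normal cells. The knockdown negative control was its lowest array. The retinol uptake receptor Stra6 (-2.22), the retinol dehydrogenase Rdh10 (-1.95) and the receptor Rarg (-1.91) were lower, also against the overexpression negative control. The list's median was -0.59.

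Of 25 other homeobox genes 18 were on the array, and of 14 that could be called none was lower with the knockdown virus (1, Meox1, under 3 other scalings), and the median was -0.38. With the overexpression virus Evx1, the neighbour of the A cluster (-1.37), and Dlx5 (-1.35) were lower than in its negative control, and no other gene of the cofactor, regulator, homeobox and position lists was called. Evx1 and Dlx5 lost that call under 2 and 6 of the 6 other scalings. Of 13 limb and trunk position genes 10 were on the array, and the T-box gene Tbx3 was lower with the knockdown virus (-2.87), at -2.07 with the knockdown virus, against 0.80 in its negative control and -0.93 in the overexpression negative control, from which it differed by -1.14, short of the threshold. The median of that list was 0.12.

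**Figure D5:**
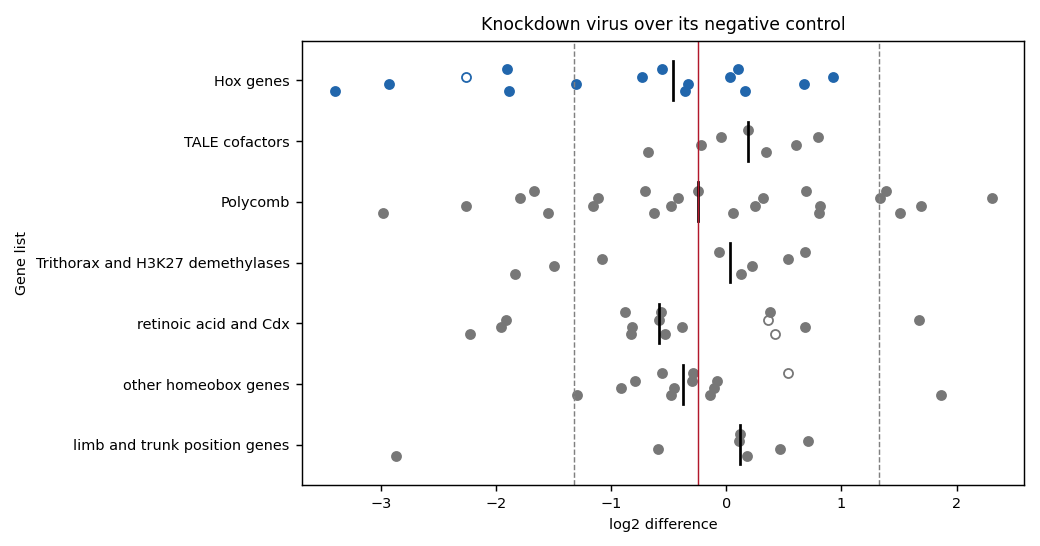
Difference between the knockdown virus and its negative control (log2, x axis) for each measured gene of 7 gene lists, with open circles for lower bounds, black bars for list medians and dashed lines at 2.5-fold. The red line is the median of all genes (-0.25). Hox genes have points beyond the lower line and none beyond the upper one, Polycomb genes have both, and TALE cofactors have neither.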

How the data were processed

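RNA from 5 groups of BRL-3A cells, 1 array each, was read on a 1-colour Agilent rat array designed on build rn4. The deposited intensity values are scanner output made with Agilent Feature Extraction 11.0.1.1, per the file headers, while the submitters' processing notes name version 9.1. The processed signal is background-subtracted within an array and not normalized between arrays, and the deposited flags mark outlier spots and spots well above background. The authors' deposited table holds log2 values with nearly equal medians in all columns, and the sources used here do not name the software that normalized them.

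Marked spots were left out, spots of a probe were averaged, and the 75th percentile of each array was subtracted on the log2 scale. RefSeq accessions named 18004 of 30366 probes, and a gene was read from the probe with the highest mean over the arrays. A difference was called at 2.5-fold where the brighter array was well above background. A dim value was replaced by the higher of itself and the lowest level well above background on its array, which makes the fold a lower bound written as "at least". Intervals (95%) come from the scanner's error, which covers the reading of spots only. The number of arrays limits precision, and with 1 array a group no p-value was computed.

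Every Hox gene on the array entered the counts, and values on all arrays are given for those well above background on each of them or called in a comparison, except that some genes are not reported here. Of other lists, up to 4 called genes a direction were named, by size, and Ezh1 was added. The members and lists were chosen with earlier results of these data known. The alternatives were quantile and cyclic loess scaling, other percentiles, normexp (offset 50, on pixel medians), the authors' values, other probe and background rules, folds of 2 and 4 and other reference arrays. The call rule was run on simulated arrays, with changes planted only in probes well clear of background and none of them at 2.5-fold. That run does not bear on calls at the threshold or on limits near background. Python 3.11.15, numpy 2.4.6, pandas 2.3.3, R 4.3.3 and limma 3.58.1 were used.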

Additional observations from a re-analysis of the deposited data

Results flagged for a closer look

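For 3 Hox genes the array labelled overexpression lay above its negative control while the knockdown array lay below its own, and the knockdown difference was called. They were picked by this pattern, and the share of all genes that show it was not counted. Hoxd10 (-0.000) and Hoxc12 (-0.061), also called lower after knockdown, did not lie above the overexpression negative control. Of the 15 Hox genes measured on both overexpression arrays 11 lay above 0, against 5283 of 10964 of all genes. The overexpression difference minus the knockdown difference was 3.49 on the log2 scale for Hoxa7 (0.56 with the overexpression virus and -2.93 with the knockdown virus) and 2.27 for Hoxb7 (0.37 with the overexpression virus and -1.91 with the knockdown virus). For Hoxa2 it was 3.14, from limits of 0.89 with the overexpression virus and -2.26 with the knockdown virus. With 1 array a group the difference was not tested, and none of the 3 overexpression values reached 2.5-fold. Against the knockdown negative control, the overexpression array differed by 0.04 for Hoxa7, 0.295 for Hoxb7 and -0.03 for Hoxa2.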

How the results depend on the processing

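No paired analysis was possible because each group had 1 array, and no array could be left out. The 5 genes lower after knockdown than in the matching negative control were called under every alternative scaling, probe rule and background rule that gave a value, with ranges of -3.45 to -2.62 for Hoxd10, -2.99 to -2.57 for Hoxa7, -2.00 to -1.42 for Hoxb7, -1.98 to -1.57 for Hoxc12 and -4.47 to -1.39 for Hoxa2. Hoxd9 joined them with quantile scaling, cyclic loess and the authors' values. The count was 3 at a fold of 4 and 9 against the overexpression negative control. Over all genes, 1079 higher and 1284 lower became 382 and 302 at a fold of 4, and 1691 and 2002 against that control. With the overexpression virus the count of 0 became 1 against the knockdown negative control and 4 against normal cells. Between the overexpression and knockdown negative controls the count of 1 became 0 with normexp and with only probes above background on all arrays, and 2 at a fold of 2. Over all genes, 400 higher and 617 lower became 207 and 178, 348 and 506, and 859 and 1116 in the same order. Against normal cells, the overexpression count of 4 became 7 with quantile scaling, 0 with normexp, 7 at a fold of 2, 1 at a fold of 4, and 2 with the percentile over all spots, an alternative chosen after seeing the data. The calls over all genes moved too, from 981 higher and 1267 lower to 1188 and 545 with quantile scaling and 587 and 200 with normexp. They were 1660 and 2247 at a fold of 2, 456 and 264 at a fold of 4, and 666 and 2151 with that percentile. The knockdown count of 5 became 8 with no filter on dim probes, 9 at a fold of 2 and 2 at a fold of 4. Over all genes, 1535 higher and 2653 lower became 1719 and 3279, 2245 and 3987, and 651 and 811 in the same order. The overexpression negative control's count of 4 became 0 with normexp, 7 at a fold of 2 and 2 at a fold of 4. Over all genes, 1022 higher and 1336 lower became 655 and 147, 1751 and 2401, and 435 and 280 in the same order. The knockdown negative control's count of 2 became 4 with quantile scaling and with the authors' values, 0 with normexp, 7 at a fold of 2 and 0 at a fold of 4. Over all genes, 953 higher and 1285 lower became 1255 and 608 with quantile scaling and 1253 and 604 with the authors' values. They became 548 and 215 with normexp, 1487 and 2260 at a fold of 2, and 476 and 315 at a fold of 4. Hoxa11, called lower after knockdown than in normal cells, lost that call with quantile and cyclic loess scaling, normexp, the authors' values and the percentile over probes above background on all arrays. No called value changed sign. The median of all genes between the knockdown virus and its negative control ran from -0.41 with normexp to 0.06 with the percentile over probes above background on all arrays. Keeping outlier-marked spots was also chosen after seeing the data. Signal near background limits Hoxa2, Hoxa11, Hoxb3, Hoxb9 and Hoxb13 to bounds or dim values.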
